A study of Bos taurus with 15 samples.

Results

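The messenger RNA of bovine endometrial cells cultured without embryos was described across 19994 genes. The libraries were those whose labels give the control treatment, 5 of the 15 libraries of the series, and they are named here by their titles, BEEC.24, BEEC.83, BEEC.84, BEEC.103 and BEEC.104. The series as a whole asked how endometrial cells respond to early embryos, and no comparison with its embryo groups is made here.

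Per the labels' protocols, cells were scraped from the luminal surface of the uterine horn on the side of the recently ovulated ovary, in beef cows after death. Cells of 4 uteri were pooled, frozen, thawed and used at passage 3, after growth in medium with 10% fetal bovine serum. Monolayers at 90% confluence were kept for 48 h in 150 µL of synthetic oviduct fluid with 5% serum in wells fitted with transwell inserts, and the control wells held no embryos. Messenger RNA was selected by its poly(A) tail and sequenced in stranded libraries with paired reads of 100 bases. Because every culture came from a single pooled stock, the SD given with each mean shows how 5 such cultures differed and says nothing of differences among cows.

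The luminal epithelium is the first maternal surface an embryo meets. It rests on a basement membrane, is held together by keratin filaments and tight junctions, and releases proteins into the uterine fluid that feeds the embryo before it attaches. The stroma beneath it is made of matrix-producing fibroblasts, and the glands secrete most of the protein of the fluid. Epithelial cells also carry sensors of bacteria and viruses, and in ruminants they answer interferon tau, the pregnancy signal of the trophoblast.

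The libraries held 15507719 to 18618467 reads assigned to genes. Levels are given as counts per 1000000 assigned reads (CPM), with mean ± SD over n = 5 libraries, and a gene counts as detected at a mean of at least 1 CPM, which is about 15.5 to 18.6 reads in a library. A CPM value is a share of reads and is not corrected for gene length, so ranks below are ranks of read share and not of transcripts per cell. In bulk RNA, fewer cells of a type and less RNA per cell cannot be told apart. Libraries BEEC.103 and BEEC.104 resembled each other, with a median absolute log2 difference of 0.07, as did BEEC.83 and BEEC.84 with 0.08. All other pairs lay between 0.10 and 0.14, and the variance of every pair exceeded counting error by at least 2.89 times, so no 2 libraries were taken as copies of each other. The labels tie no library to a replicate experiment.

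Of the 19994 genes, 12154 (60.8%) were detected, 3701 had reads but a mean under 1 CPM, and 4139 (20.7%) had 0 reads in all 5 libraries. A mean of at least 10 CPM was reached by 9118 genes, at least 100 by 1756 and at least 1000 by 89. The median over detected genes was 26.6 CPM. Counts of detected members of lists and families below are to be read against the 60.8% of all genes. Counts at 100 CPM or more are to be read against 1756 of 19994 genes. The reads were concentrated on few genes, with 14.8 ± 0.564% on the first 10, 31.8 ± 1.12% on the first 100 and 61.2 ± 0.851% on the first 1000. The number of genes that held 50% of a library's reads was 442 in library BEEC.24, 449 in BEEC.83 and 457 in BEEC.84, against 507 in BEEC.103 and 513 in BEEC.104. More genes were thus needed for 50% of reads in BEEC.103 and BEEC.104 than in the other 3. Genes with a read numbered 14742 in BEEC.103 and 14627 in BEEC.104, and 14625 to 14673 in the others.

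**Figure D1:**
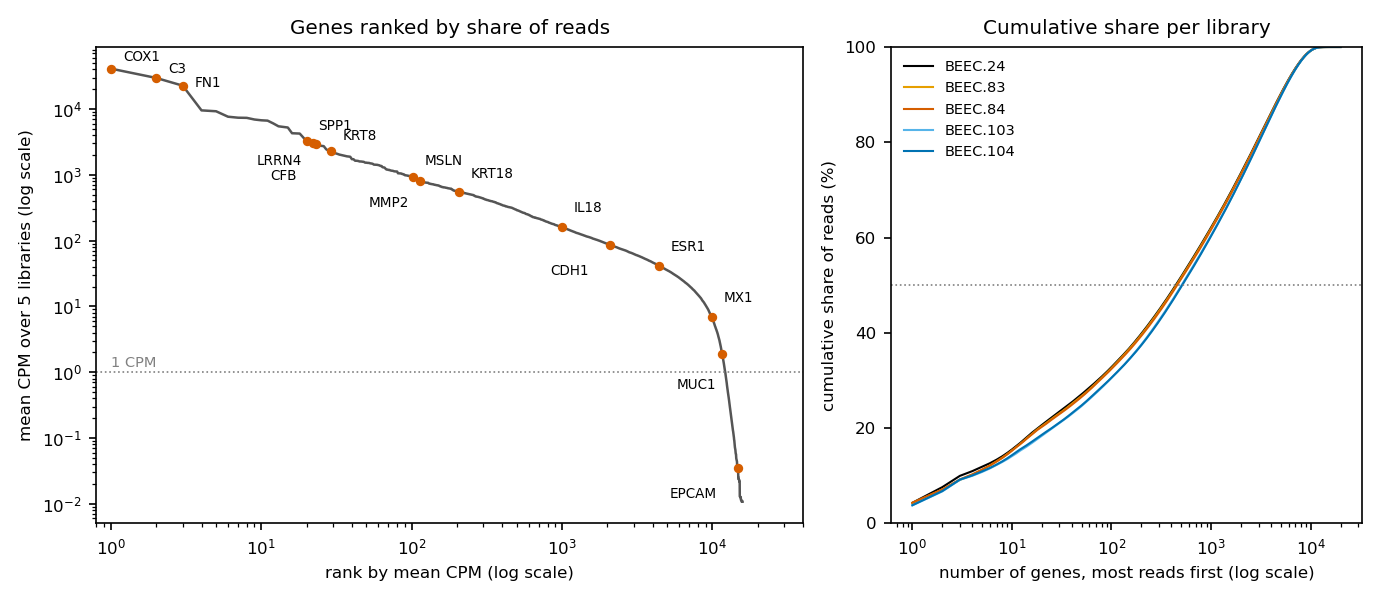
Left, mean CPM over 5 libraries against rank, both on log scales, with named genes as points and the detection minimum of 1 CPM as a dotted line; right, the cumulative share of reads in percent against the number of genes, most reads first, on a log scale, a line per library, with the dotted line at 50%. COX1, C3 and FN1 stand first and EPCAM lies far below 1 CPM. The curves of libraries BEEC.103 and BEEC.104 nearly coincide and reach 50% at more genes than the other 3.

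Mitochondrial, matrix and complement transcripts led the ranking. COX1, the mitochondrial gene for a subunit of cytochrome c oxidase, came first at 41055 ± 2837 CPM. C3, the central protein of the complement cascade (ENSBTAG00000017280), came second with 32932, 28221, 27922, 29433 and 29748 CPM in libraries BEEC.24, BEEC.83, BEEC.84, BEEC.103 and BEEC.104, a mean of 29651 ± 1991. FN1, the matrix glycoprotein fibronectin, came next with 23628, 20277, 21039.6, 24176 and 24042 CPM, a mean of 22632 ± 1833. These 3 genes took 9.33 ± 0.361% of all reads, and no library lay far from the others in C3 or FN1. Of the first 100 genes, sorted by function after the ranking was seen, 16 encode extracellular matrix proteins and took 7.50% of reads. A further 13 encode other secreted proteins with 5.21%, 17 belong to translation with 2.95%, 16 to the cytoskeleton with 2.29% and 9 to membrane and junctions with 1.53%. The 11 mitochondrial genes among the 100 took 9.55%, and the remaining 18 genes took 2.73%. The share of the 13 mitochondrial genes was 10.2, 10.7 and 10.5% in libraries BEEC.24, BEEC.83 and BEEC.84, and 8.41 and 8.65% in BEEC.103 and BEEC.104, which did not overlap with the other 3.

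The labelled cell type was checked against its markers. The genes given as markers of these cells were KRT8, KRT18, C3 and MMP2, and each had at least 100 CPM. MMP2 is also in the stromal marker set, and C3 is not specific to epithelium, so of these 4 genes only the keratins bear on an epithelial label. KRT8, a keratin of simple epithelia (ENSBTAG00000000836), had 2573, 2178, 2368, 2184 and 2032 CPM in libraries BEEC.24, BEEC.83, BEEC.84, BEEC.103 and BEEC.104, a mean of 2267 ± 208 at rank 29. KRT18, its filament partner (ENSBTAG00000001517), had 696, 532, 564, 509 and 468 CPM, a mean of 554 ± 87.2 at rank 206. Library 24 was the highest in both keratins and library BEEC.104 the lowest. MMP2, a gelatinase made mainly by stromal cells (ENSBTAG00000019267), had 933, 779, 748, 813 and 804 CPM, a mean of 815 ± 70.5 at rank 114, again highest in library BEEC.24. C3 is given above.

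Other epithelial markers ranged from high levels to almost no reads. In the epithelial list 18 of 28 members were detected (64.3%, against 60.8% of all genes). Of these, 12 had at least 10 CPM and 7 at least 100. A further 6 had reads but a mean under 1 CPM, and 4 were at 0. KRT19, another simple-epithelium keratin, had 951 ± 77.9 CPM, and KRT7 had 43.6 ± 5.43. Among junction genes, TJP1 (a tight junction scaffold) had 1202 ± 146 CPM, CLDN1 (a tight junction claudin) 949 ± 51.2, JUP (plakoglobin) 375 ± 17.4 and DSP (desmoplakin, of desmosomes) 172 ± 9.47. CDH1, the epithelial cadherin, had 88.0, 82.9, 75.9, 93.4 and 89.2 CPM, a mean of 85.9 ± 6.70 with the libraries close together. By contrast, EPCAM, an adhesion molecule of most simple epithelia, had 3 reads in all 5 libraries together. The claudins CLDN3, CLDN4 and CLDN7 had 0.269, 0.0828 and 0.0359 CPM, from 23, 7 and 3 reads. GRHL2, a transcription factor that maintains epithelial identity, and CD24, a surface glycoprotein, had 0 reads in every library, which allows a level of up to 0.0349 CPM over the 5 libraries (3 reads in all, counting error only). The mucin MUC1 had 1.86 ± 0.724 CPM, and ELF3, an epithelial transcription factor, had 1.55 ± 0.460. ESRP1 and ESRP2, splicing factors of epithelial cells, had 1.15 ± 0.438 and 8.71 ± 0.471 CPM. The keratins and desmosomal genes were therefore present while EPCAM and the 3 claudins lay under 1 CPM in each library.

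Stromal markers carried more reads than the epithelial ones. In the marker set 13 of 14 stromal genes were detected, with summed levels of 25052 to 26458 CPM per library, and 9 of 14 epithelial genes, with 3714 to 4640 CPM. The longer stromal list had 34 of 36 members detected and took 6.22 ± 0.0865% of reads. Of all reads, 6.03% fell on its intermediate filament and matrix genes, 0.171% on its surface and contractile genes and 0.0123% on its regulators. In the marker set most of the summed stromal level came from COL1A2, COL1A1 and COL3A1, at 7377, 6924 and 6739 CPM. These collagens are counted again in the matrix list below, so the read shares overlap and are not a measure of stromal cells. In the epithelial list, keratins took 0.382%, adhesion and junction genes 0.291% and regulators and surface genes 0.0017%. VIM, the intermediate filament of mesenchymal cells, had 1168 ± 81.6 CPM, and DCN (decorin, a small matrix proteoglycan) had 2225, 2112, 2159, 2623 and 2505 CPM. LUM, a related proteoglycan, had 315 ± 41.1 CPM. The growth factor receptors PDGFRA and PDGFRB had 46.8 ± 4.96 and 32.5 ± 4.72 CPM. Of 9 listed regulators of mesenchymal cells 8 were detected, with ZEB1 at 42.3 ± 2.60, HAND2, a stromal factor of the mouse uterus, at 14.2 ± 0.870 and TWIST1 at 3.63 ± 0.474 CPM. THY1, a fibroblast surface protein, was the 1 stromal marker not detected, with 18 reads in all. DCN was higher in libraries BEEC.103 and BEEC.104 than in the other 3, while THY1 was at 0 in library BEEC.104 and had a few reads in the others.

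Several genes known as markers of mesothelium, the keratin-positive and vimentin-positive layer that covers the outer surface of abdominal organs, stood high in the ranking. These genes were grouped after the ranking had been seen, so their count is a description. LRRN4, a leucine-rich repeat membrane protein, had 3111, 2951, 2984, 3144 and 3230.3 CPM in libraries BEEC.24, BEEC.83, BEEC.84, BEEC.103 and BEEC.104, a mean of 3084 ± 116 at rank 22. UPK1B, a uroplakin tetraspanin, had 1527, 1479.9, 1572, 1661 and 1625 CPM, a mean of 1573 ± 72.7 at rank 48. MSLN, mesothelin, had 947, 908, 937, 919.6 and 932 CPM, a mean of 929 ± 14.9. The libraries agreed closely for all 3 genes. WT1, a transcription factor of mesothelium and of uterine stroma, had 461 ± 11.3 CPM. UPK3B, a second uroplakin, had 344 ± 27.2 CPM and BNC1, a zinc finger protein, had 321 ± 24.2. Of 18 gene rows grouped here 15 were detected (83.3%, against 60.8% of all genes), 10 of them at 100 CPM or more. The summed level of the 18 rows was 7820 to 8461 CPM per library. The lowest of those detected were SBSPON at 1.36 ± 0.464, HAS1 at 1.62 ± 0.446 and RSPO1 at 12.2 ± 0.797 CPM. CALB2, calretinin, and both rows of ITLN2, an intelectin, were at 0. CALB2 overlaps CMTR2, which had 12.7 ± 2.48 CPM, and how reads of overlapping genes were assigned is not given in the sources used here. CRLS1, a cardiolipin synthase gene that lies 1637 bases from LRRN4 in the ARS-UCD2.0 annotation, had 1729 ± 50.8 CPM, and whether reads of one are counted to the other was not tested. UPK1B and UPK3B are also made by urothelium, and WT1 by endometrial stroma. The epithelial and stromal markers given above go only in part with an epithelial label, and the cultures are named here by their treatment, cells cultured without embryos.

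Markers of other tissues were mixed. Of the gland genes FOXA2 (a transcription factor of gland formation), SERPINA14 (uterine serpin) and PAEP, all 3 had 0 reads in every library. FOXJ1, the master regulator of motile cilia, had 0.0824 CPM. Of 6 genes of the ciliated list 3 were detected, CCDC78 at 6.89, TPPP3 at 3.04 and DNAI1 at 2.23 CPM, and none reached 10. PTPRC, the common leukocyte antigen, had 0.0237 CPM and CD3E, of T cells, had 0 reads, while CD14 had 7.95 ± 0.831 CPM. CD68, a lysosomal protein abundant in macrophages, had 7.25, 29.1, 30.1, 7.42 and 5.94 CPM, so libraries BEEC.83 and BEEC.84 lay far above the other 3. The summed level of the 4 leukocyte markers ranged from 14.8 to 37.3 CPM and followed CD68, and 2 of the 4 were detected. VWF, of endothelium, had 10.8 ± 2.18 CPM while CDH5, PECAM1 and KDR were under 1 CPM. CNN1, a calponin of smooth muscle, had 49.6 ± 5.18 CPM while DES and MYH11 were under 1 CPM. Of 8 genes of the smooth muscle list 4 were detected, 3 of them at 10 CPM or more. The contractile genes ACTA2 and TAGLN, which smooth muscle shares with activated fibroblasts, had 275 and 417 CPM. Neither red cell marker, HBB or ALAS2, was detected.

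**Figure D2:**
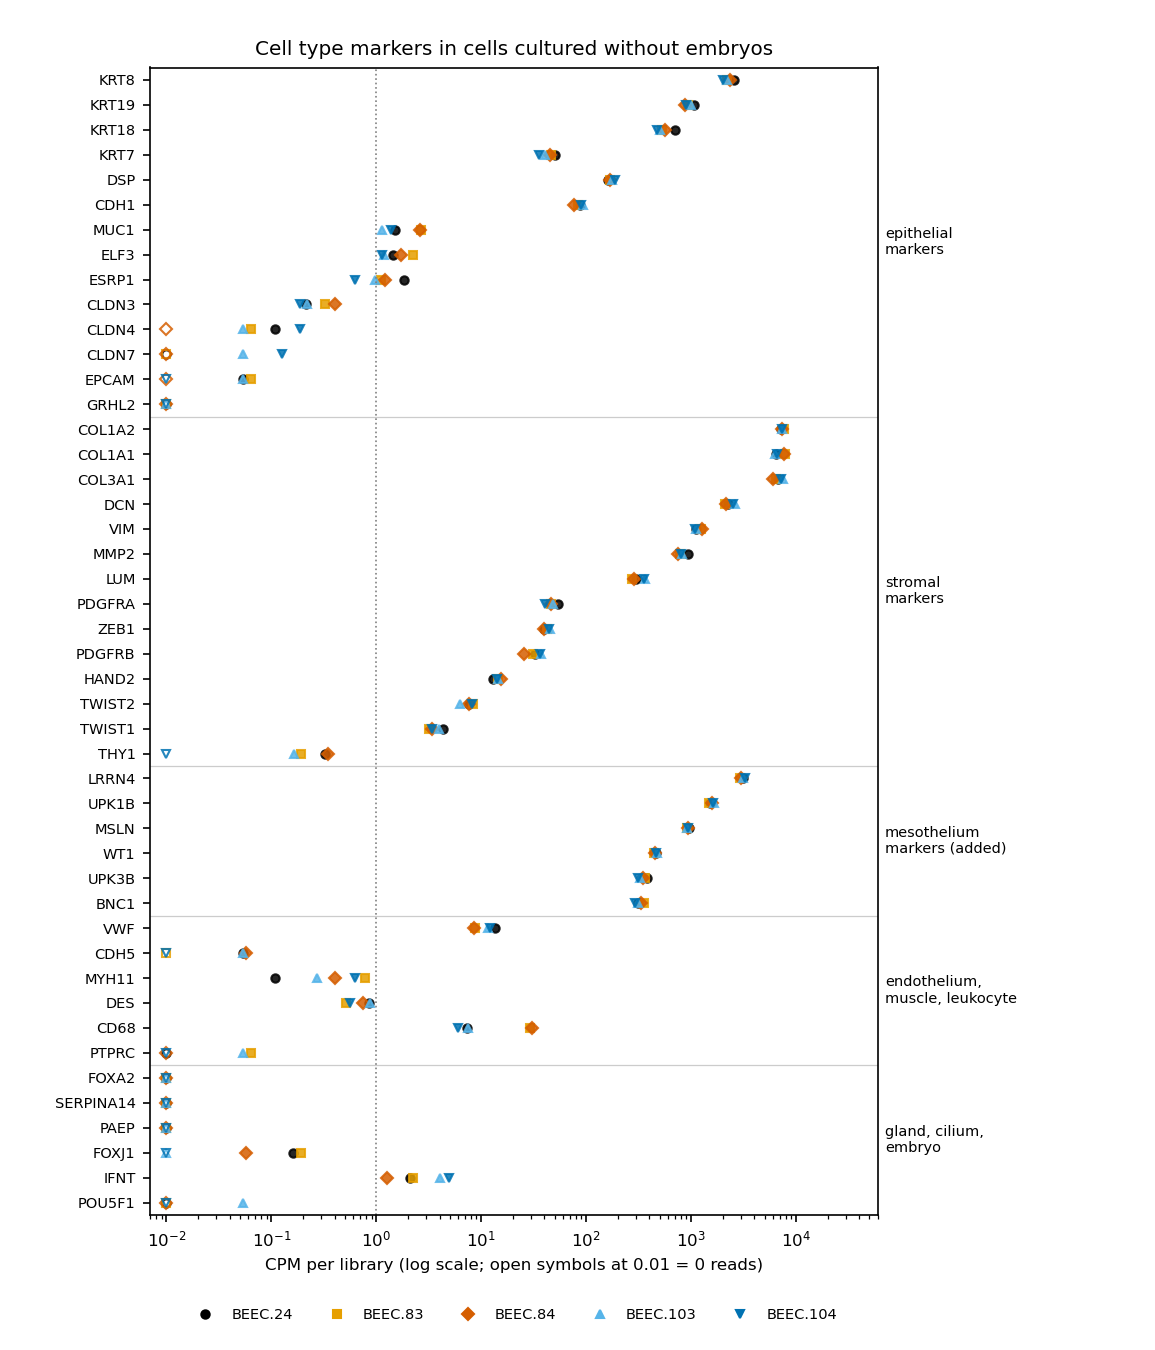
CPM per library on a log scale for cell type markers, a symbol and colour per library; open symbols at 0.01 stand for 0 reads, and the dotted line marks 1 CPM. The keratins plotted other than KRT7, the 3 collagens, and LRRN4, UPK1B, MSLN, WT1, UPK3B and BNC1 lie above 100 CPM, while EPCAM, CLDN3, CLDN4, CLDN7, GRHL2 and the 3 gland genes lie under 1 CPM.

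Of 10 genes of the early embryo, 1 was detected and 4 were at 0. That gene was IFNT, interferon tau, with 2.09, 2.26, 1.26, 4.01 and 4.94 CPM in libraries BEEC.24, BEEC.83, BEEC.84, BEEC.103 and BEEC.104, from 249 reads in all. Libraries BEEC.103 and BEEC.104 were the 2 highest. Interferon tau is a family of near-identical copies, so the assignment of reads to a single copy is uncertain, and the source of these reads was not tested. POU5F1 and SOX2, pluripotency factors, had 0.0108 CPM each, and NANOG and the 3 PAG genes, the pregnancy-associated glycoproteins of the placenta, had 0 reads.

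Of the gene lists the matrix list had the largest read share, with 6.85 ± 0.0712% of reads and 36 of 39 members detected. Fibrillar collagen led, with COL1A2 at 7377 ± 208, COL1A1 at 6924 ± 738 and COL3A1 at 6739 ± 584 CPM. SPARC, a collagen-binding glycoprotein, had 8972, 9971, 9994, 8551 and 8724 CPM, highest in libraries BEEC.83 and BEEC.84. Basement membrane genes were also present. HSPG2, perlecan, had 2790.5 ± 239.5 CPM, and the laminin chains LAMB1, LAMA5 and LAMC1 had 1594, 561 and 369 CPM. LAMB3, a chain of the laminin that anchors stratified epithelium, had 1.67 CPM, and COL17A1, a hemidesmosome collagen, had 0.606. LTBP2, which binds elastic microfibrils, had 7233, 7267 and 7667 CPM in libraries BEEC.24, BEEC.83 and BEEC.84 but 4184 and 3850.3 in BEEC.103 and BEEC.104. The 2 sets of libraries did not overlap.

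Secreted proteins outside the matrix were read at high shares as well. In the secreted list 73 of 98 members were detected (74.5%, against 60.8% of all genes), 35 of them at 100 CPM or more. The list took 5.37 ± 0.240% of reads, most of it C3. Complement was present from its initiators to its inhibitors. CFB, the protease of the alternative pathway, had 3406, 3009, 3156, 2527 and 2537 CPM, lower in libraries BEEC.103 and BEEC.104 than in the other 3. C1S and C1R, proteases of the classical pathway, had 547 ± 35.5 and 507 ± 34.7 CPM. C4A had 114 CPM, and C5, the first protein of the terminal pathway, had 1.28 ± 0.170. Among regulators that protect host cells, CD55 had 521 ± 57.1 and CD46 382 ± 32.0 CPM. CFI, the protease that cuts C3b, had 15.3, 12.9 and 12.4 CPM in libraries BEEC.24, BEEC.83 and BEEC.84 and 26.2 and 29.1 in BEEC.103 and BEEC.104, without overlap.

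Proteases and their inhibitors showed 20 of 24 members detected (83.3%, against 60.8% of all genes). CST3, cystatin C, an inhibitor of cathepsins, had 1293 ± 85.4 CPM, and the serine protease HTRA1 had 949 ± 60.5. TIMP1 and TIMP2, inhibitors of metalloproteinases, had 390.2 ± 34.5 and 197 ± 10.0 CPM. MMP7, a metalloproteinase of epithelial cells, had 8.17 CPM, while the gelatinase MMP9 and the collagenase MMP13 had 0 reads. MMP2 was thus the gelatinase with reads in these cultures.

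Growth factors and their binding proteins showed 31 of 41 members detected (75.6%, against 60.8% of all genes). The binding proteins IGFBP7 and IGFBP2, which carry insulin-like growth factors, had 1421 ± 50.8 and 1029.8 ± 121 CPM. CYR61, a matricellular protein, had 948, 1404, 1335, 1669.6 and 1732 CPM, lowest in library BEEC.24. CTGF, of the same family, had 1045, 1441, 1291, 1638 and 1613 CPM and was lowest in the same library. The Wnt modulators SFRP2 and DKK3 had 4234 ± 186 and 534 ± 61.3 CPM, and the Wnt ligand WNT5A had 111 ± 9.65. IGF2 had 120.2 ± 8.43 CPM, while IGF1 had a mean of 0.0115. LIF, a cytokine required for implantation in mice, had 24.7, 24.1, 24.5, 24.4 and 24.8 CPM, nearly level over the libraries. FST, the activin inhibitor follistatin, had 153 ± 16.1 CPM. The EGF family ligands AREG and EREG had 0 reads, and HBEGF had 6.77 CPM. DKK1, a Wnt inhibitor of the bovine endometrium, had 2 reads, both in library BEEC.104.

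Proteins known from uterine fluid were detected in 10 of 19 cases (52.6%, against 60.8% of all genes). SPP1, osteopontin, an integrin ligand, had 4141, 3460.2, 2958, 3102 and 2558 CPM, highest in library BEEC.24 and lowest in BEEC.104. LGALS3, a galectin, had 624 ± 30.3 CPM, and MFGE8, a milk fat globule protein that binds integrins, had 351. RBP4, the retinol carrier of uterine fluid, had 279, 261 and 260.3 CPM in libraries BEEC.24, BEEC.83 and BEEC.84 and 365 and 385 in BEEC.103 and BEEC.104, without overlap. PTGDS, lipocalin-type prostaglandin D synthase, had 127 ± 14.3 CPM. OVGP1, oviductal glycoprotein, had 2.59 ± 0.388 CPM. PAEP, SERPINA14, TFF3 (a trefoil peptide) and GRP (gastrin-releasing peptide of uterine glands) had 0 reads.

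Receptors were detected in 83 of 105 cases (79.0%, against 60.8% of all genes). At 100 CPM or more stood 18 of the 105, against 1756 of all 19994 genes. The receptor list took 0.741 ± 0.0212% of reads. Among nuclear receptors 15 of 20 were detected. ESR1, the oestrogen receptor alpha, had 38.9, 38.6, 39.3, 43.6 and 46.9 CPM, a mean of 41.4 ± 3.66, and ESR2 had 0.0125. RARA, a retinoic acid receptor, had 164 ± 8.94 CPM and the glucocorticoid receptor NR3C1 had 99.2 ± 10.5. PGRMC2 and PGRMC1, membrane proteins linked to progesterone, had 172 and 99.6 CPM. The nuclear progesterone receptor was not analysed here. NR3C1 and ESR1 were both highest in library BEEC.104.

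Of 9 prostaglandin and oxytocin receptors 5 were detected. PTGDR, a receptor of prostaglandin D2, had 70.9 ± 8.43 CPM and PTGER3, of prostaglandin E2, had 30.0 ± 3.66. PTGFR, the receptor of prostaglandin F2 alpha, had 13.9, 14.8, 15.2, 20.4 and 25.3 CPM, highest in libraries BEEC.103 and BEEC.104. PTGER4, through which prostaglandin E2 raises cyclic AMP, had 12.1 ± 2.20 CPM, while PTGER2, which does the same, had 0.0598. OXTR, the oxytocin receptor, part of the luteolytic signal in cows, had 29 reads in all and 0 in library BEEC.84.

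On the enzyme side of the prostaglandin pathway 10 of 12 genes were detected. PTGS2, the inducible cyclooxygenase, had 52.1 CPM in library BEEC.24 and 87.1, 92.5, 87.2 and 92.0 in BEEC.83, BEEC.84, BEEC.103 and BEEC.104, so library BEEC.24 stood apart. The constitutive PTGS1 had 7.80 CPM. PTGES, the inducible prostaglandin E synthase, had 41.5, 41.5 and 48.3 CPM in libraries BEEC.24, BEEC.83 and BEEC.84 and 21.2 and 21.9 in BEEC.103 and BEEC.104, without overlap. PTGIS, prostacyclin synthase, had 147 ± 11 CPM and PLA2G4A, the phospholipase that releases arachidonic acid, had 141. HPGD, the dehydrogenase that inactivates prostaglandins, had 0.542 CPM.

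Cytokine receptors were detected in 18 of 22 cases (81.8%, against 60.8% of all genes). IL6ST, the signalling chain shared by LIF and interleukin 6, had 566 ± 60.2 CPM, and LIFR, the LIF-specific chain, had 6.52 ± 0.668. IFNAR1 and IFNAR2, the chains of the receptor that binds type I interferons including interferon tau, had 80.1 ± 5.53 and 26.1 ± 2.88 CPM. Growth factor receptors were detected in 24 of 25 cases. IGF2R, which clears IGF2, had 540.3 ± 55.4 CPM, MET, the receptor of HGF, had 350.2 ± 39.5 and FGFR1 had 277 ± 18.5. FGFR2 had 57.0 ± 6.45 CPM and EGFR 52.3 ± 2.73. HGF itself had a mean of 0.816 CPM, just under the detection minimum.

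**Figure D3:**
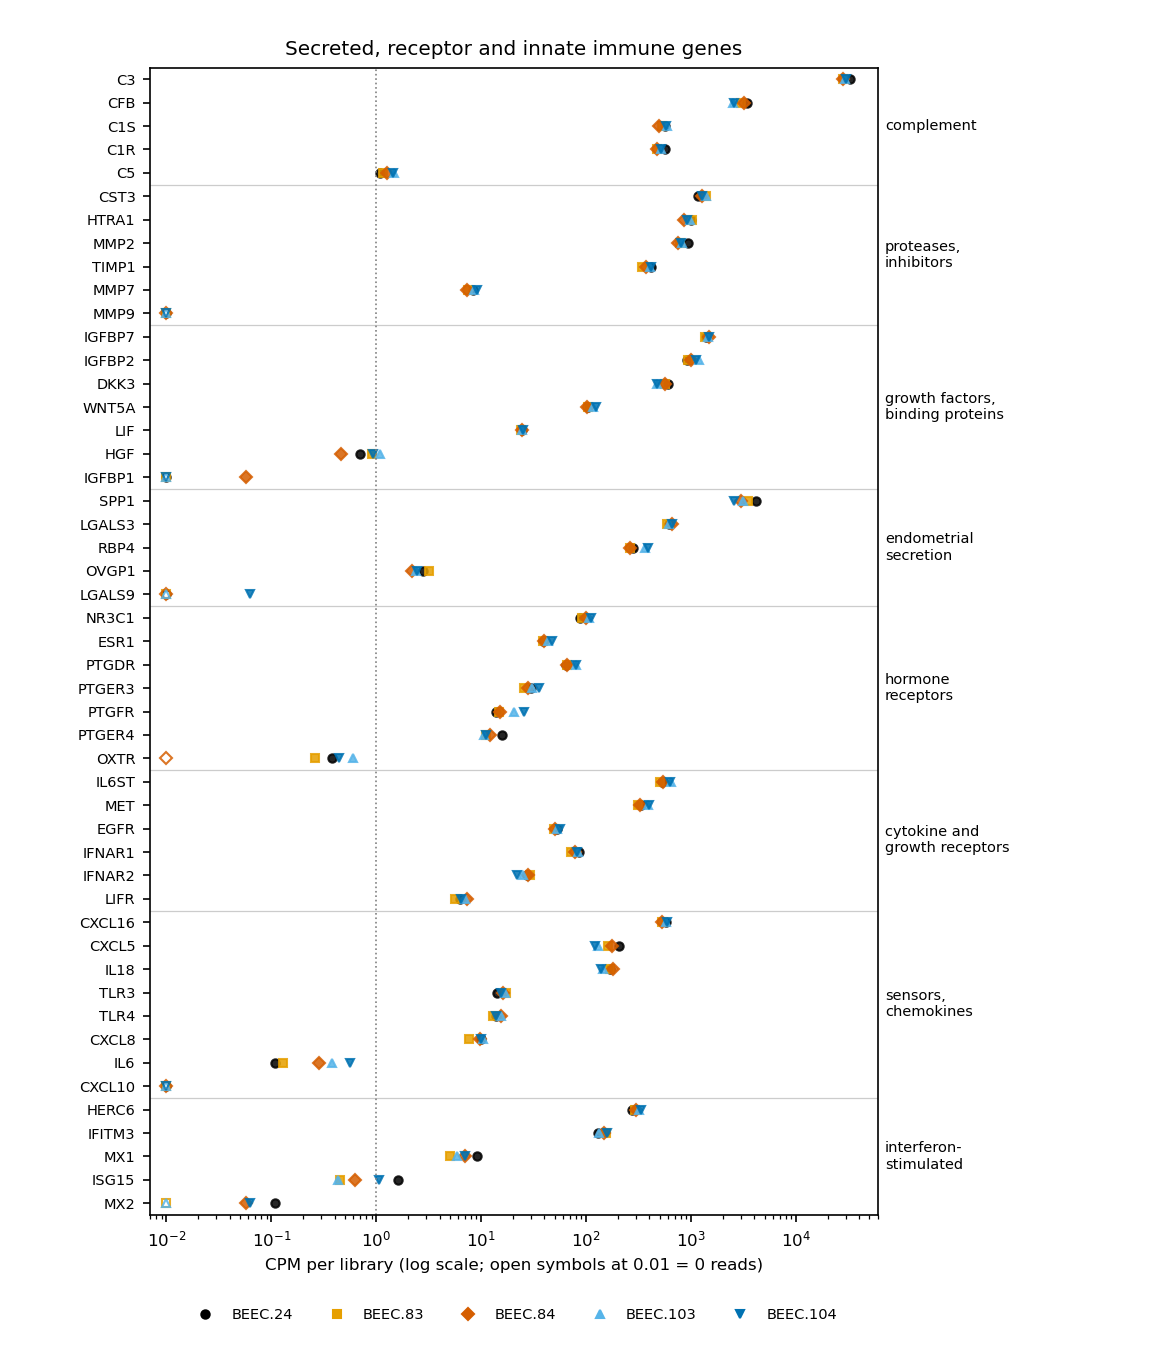
CPM per library on a log scale for secreted, receptor and innate immune genes grouped by role, a symbol and colour per library; open symbols at 0.01 stand for 0 reads, and the dotted line marks 1 CPM. Complement genes reach from C3 at 29651 CPM to C5 at 1.28 CPM, and MX2, ISG15, IL6 and CXCL10 lie mostly or wholly under 1 CPM.

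Innate immune genes were detected in 86 of 148 cases (58.1%, against 60.8% of all genes) and took 0.539 ± 0.0243% of reads. Toll-like receptors and their adaptors were detected in 13 of 17 cases (76.5%). TLR3, which binds double-stranded RNA, had 15.9 ± 1.23 CPM, and TLR4, which binds bacterial lipopolysaccharide, had 14.3 ± 1.10. MYD88, an adaptor of TLR4 that TLR3 does not use, had 53.8 ± 1.41 CPM and LY96, the partner of TLR4, had 33.8. TLR2 had 2.61 ± 0.571 CPM, while TLR7, TLR9 and TLR10 were under 1 CPM. Cytosolic sensors were detected in 11 of 13 cases, with EIF2AK2 at 76.4 and DDX58, which encodes RIG-I, at 24.2 CPM. NLRP3, an inflammasome sensor, had 0 reads.

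Chemokines and cytokines were detected in 12 of 28 cases (42.9%, against 60.8% of all genes). CXCL16, a membrane-anchored chemokine, had 558 ± 28.9 CPM. CXCL5, which attracts neutrophils, had 207, 162, 178, 131 and 121 CPM, lower in libraries BEEC.103 and BEEC.104 than in the other 3. IL18, an epithelial cytokine of the interleukin 1 family, had 167, 168, 178, 143 and 138 CPM in the same arrangement. The acute inflammatory cytokines were nearly without reads, with IL6 at 0.293 ± 0.188 CPM from 25 reads, TNF at 0.0699 CPM and IL1B at 0. CXCL8, a neutrophil chemokine, had 9.52 ± 1.10 CPM, and the interferon-induced CXCL10 and CXCL11 had 0 reads.

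Antimicrobial genes were detected in 1 of 19 cases, and 13 were at 0. The detected gene was LCN2, lipocalin 2, which withholds iron from bacteria, with 0.376, 0.0645, 0.229, 3.20 and 4.0 CPM. It passed the minimum of 1 CPM through libraries BEEC.103 and BEEC.104 alone, and without them it would not be detected. Tracheal and lingual antimicrobial peptides (TAP and LAP), S100A8, S100A9, the cathelicidins and lysozyme (LYZ) were at 0. Of 16 beta-defensin genes in the table none was detected and 14 were at 0.

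Receptor and signalling genes of the interferon pathway were detected, while of 5 interferons on the list, which does not hold IFNT, none was, with IFNE at 0.0695 and IFNB1 at 0.0344 CPM. Signalling members were detected in 13 of 15 cases, with JAK1 at 241 CPM and IRF9 at 26.3 ± 1.23. Among 25 interferon-stimulated genes 17 were detected (68%, against 60.8% of all genes), 2 of them at 100 CPM or more. HERC6, an interferon-induced ubiquitin ligase, had 272, 291, 296, 321 and 334 CPM, and IFITM3, which blocks virus entry, had 144 ± 12.2. In contrast MX1, an antiviral GTPase, had 9.13, 5.03, 6.99, 5.91 and 7.01 CPM, and ISG15, a ubiquitin-like modifier, had 1.61, 0.451, 0.630, 0.433 and 1.06. MX2 had 4 reads in all. For antigen presentation 13 of 17 genes were detected, with B2M, which encodes beta-2-microglobulin, at 224 ± 19.2 CPM. BOLA-DRA, an MHC class II chain, had 0.0817 CPM.

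Of 58 listed transcription factors of the endometrium and reproductive tract 44 were detected (75.9%, against 60.8% of all genes). In the mouse, HOXA9 marks the oviduct, HOXA10 the uterus, HOXA11 the lower uterus and cervix, and HOXA13 the upper vagina. HOXA9 had 143 ± 10.4 CPM, HOXA10 47.8 ± 3.68, HOXA11 5.78 ± 1.09 and HOXA13 0.240. Of 35 HOX genes listed 27 were detected, including HOXC6 at 86.0 ± 7.81 CPM. The 5 libraries kept the same order of these 4 HOXA genes by read share. GATA6, a zinc finger factor, had 198 ± 16.8 CPM, NR2F2, a stromal nuclear receptor of the uterus, had 114 and EMX2 had 53.8, while PAX2 and SOX17 had 0 reads.

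**Figure D4:**
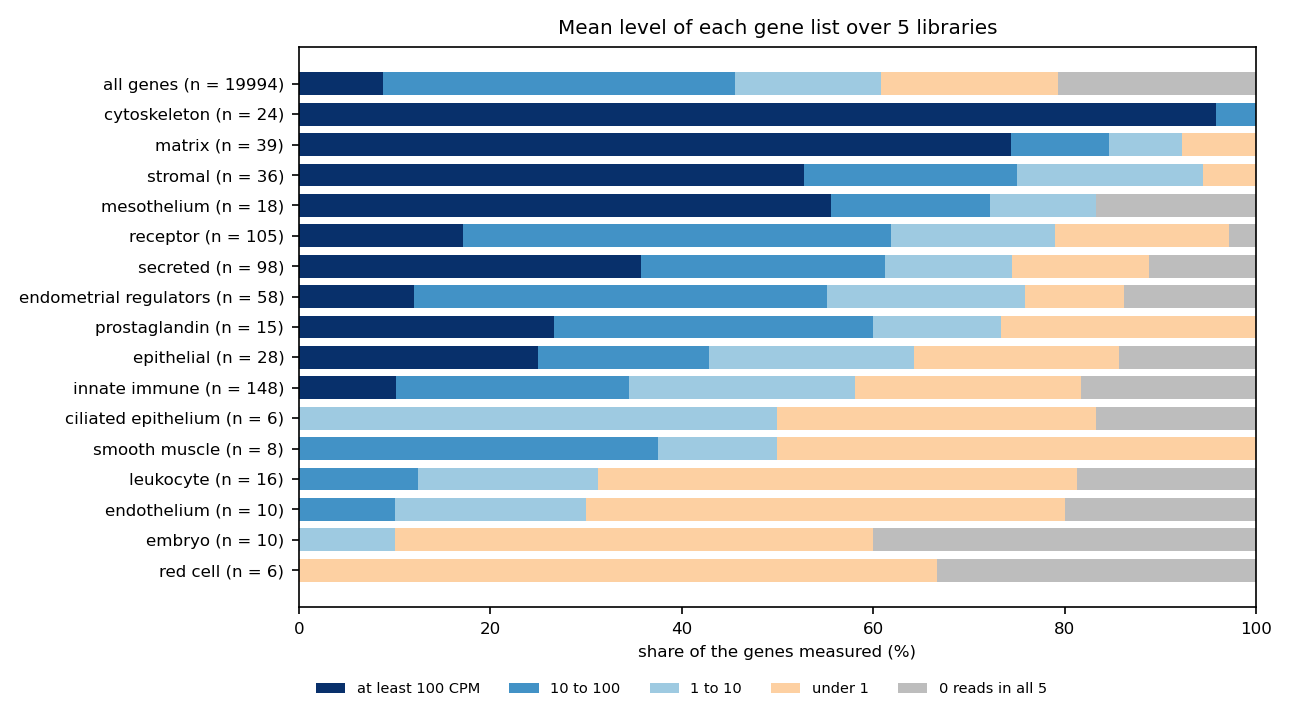
Share of the measured genes of each list, in percent, by mean level over 5 libraries: at least 100 CPM, 10 to 100, 1 to 10, under 1, and 0 reads in all 5 libraries; n is the number of gene rows. At 100 CPM or more stand 23 of 24 cytoskeleton, 29 of 39 matrix and 19 of 36 stromal genes, and the red cell, embryo, endothelium and leukocyte lists lie mostly under 1 CPM.

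Genes without reads included nearly all olfactory receptors. Of the 4139 genes at 0 in all libraries, 746 were olfactory receptors and 1523 had no symbol, and none of the 772 olfactory receptor genes was detected. A 0 in this table is not proof that a gene was silent. Among 135 genes of the proteasome, RNA polymerase II, the CCT chaperonin, complex I, vacuolar sorting and spliceosomal proteins 132 were detected. These genes were taken by name, so some of them may not be used by every cell. The proteasome subunits PSMA8 and PSMC4 were at 0. YAP1, a growth regulator of most tissues, and TAP2, IL17RA and IRF7 were at 0 too. TIMP3, a metalloproteinase inhibitor, was at 0 in the table and overlaps SYN3, a synapsin gene of neurons, which had 615 ± 45.3 CPM. HOXA4 at 0 overlaps HOXA3 with 77.1 ± 5.61 CPM, and GPER1, an oestrogen-binding receptor, at 0 overlaps a gene with 36.6 ± 1.67 CPM. How reads of overlapping genes were assigned is not given in the sources used here. In the ARS-UCD2.0 annotation, 10.9% of 2467 placed genes at 0 overlapped another gene, and so did 19.5% of 11271 detected genes.

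The cultures were similar in most genes. Among 9118 genes with a mean of at least 10 CPM the median SD of log2(CPM + 1) over the 5 libraries was 0.10, the 90th percentile was 0.19 and 17 genes had an SD of at least 0.5. The steadiest was NCOA5, a nuclear receptor coactivator, with 51.4 ± 0.148 CPM. The most variable was FOSB, an immediate early transcription factor, with 43.0, 319, 254, 133 and 101 CPM in libraries BEEC.24, BEEC.83, BEEC.84, BEEC.103 and BEEC.104. EGR1, another immediate early factor, had 828, 2190.2, 2186, 1405 and 1512 CPM, and NR4A1, an orphan nuclear receptor of the same class, had 35.2, 134, 122, 103.1 and 92.2. ATF3, a stress-induced factor, had 82.8, 235, 226, 148 and 135 CPM. In all 4 genes library BEEC.24 was the lowest and BEEC.83 the highest. Library 24 was also the lowest in PTGS2, CYR61 and CTGF.

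A second pattern concerned libraries BEEC.103 and BEEC.104. Of 9118 genes with a mean of at least 10 CPM, 2 had both libraries more than 2-fold above or below all the others. The genes named here were picked after their values were seen, and how many genes show no overlap was not counted. ELN, elastin, had 12.7, 17.4 and 17.0 CPM in libraries BEEC.24, BEEC.83 and BEEC.84 and 3.31 and 3.57 in BEEC.103 and BEEC.104. TNC, the matrix protein tenascin C, had 61.2, 85.6 and 99.2 CPM against 30.4 and 22.3. LTBP2 and PTGES were lower in these 2 libraries and CFI, RBP4 and LCN2 higher, as given above. PIEZO2, a mechanically gated channel, had 8.97, 13.9 and 16.3 CPM against 7.04 and 6.13. The labels give these 2 libraries the same treatment as the others, and no test was made of a division seen in the data. Without both libraries, 12144 genes were detected, so the number of detected genes did not rest on them. Over the remaining libraries 18 genes had an SD of at least 0.5. An SD over fewer libraries is not the same measure, and whether these 18 were the same genes was not tested.

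**Figure D5:**
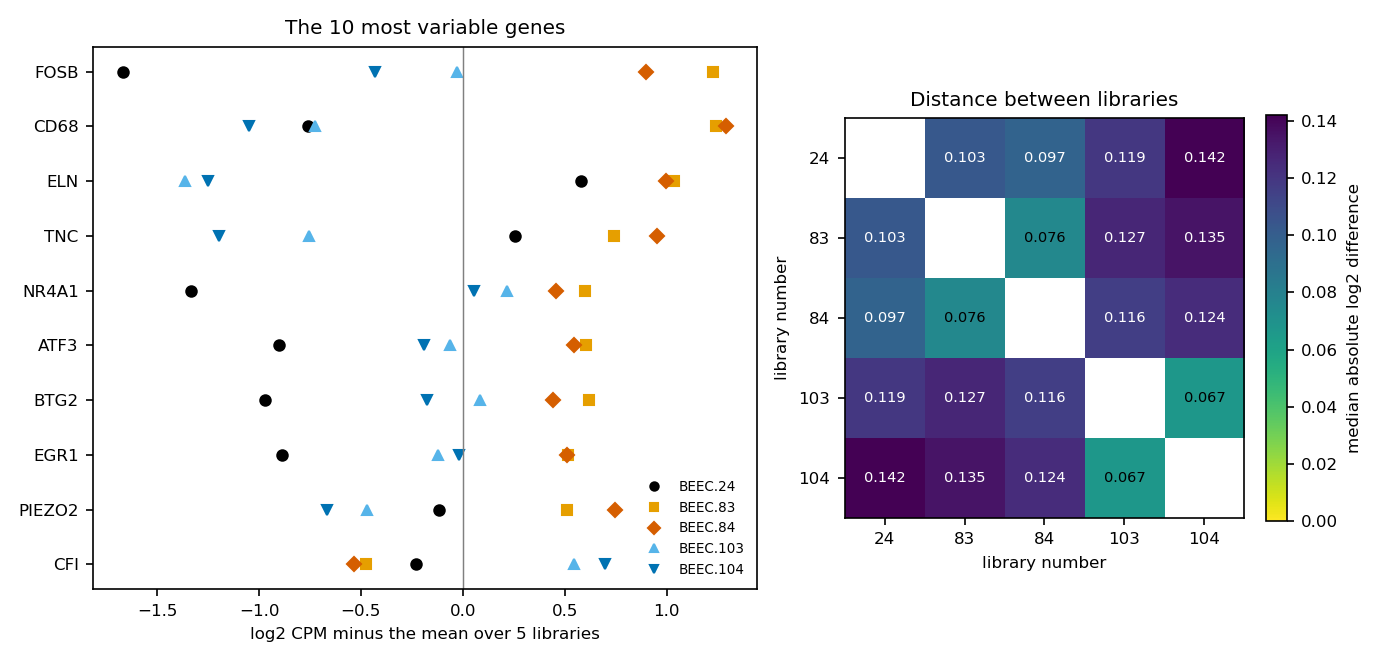
Left, log2 CPM of the 10 most variable genes with a mean of at least 10 CPM, given as the distance from the mean of 5 libraries, a symbol and colour per library; right, the median absolute log2 difference between each pair of libraries, with the scale bar starting at 0. Library 24 lies lowest in FOSB, NR4A1, ATF3, BTG2 and EGR1, libraries BEEC.103 and BEEC.104 lie lowest in ELN, TNC and PIEZO2, and the pairs BEEC.83 with BEEC.84 and BEEC.103 with BEEC.104 have the smallest differences.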

How the data were processed

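Messenger RNA was sequenced from 15 libraries, and the 5 control libraries were used. The table the authors deposited holds a signal per gene and library, a read count divided by that library's size factor. The submitters' processing notes name FastQC 0.71, HISAT2 2.1.0, featureCounts 1.6.2 and DESeq2 1.18.1. Neither build nor annotation nor strand setting is given in the sources used here, so reads of overlapping genes and close paralogs are uncertain. In every library 100% of the values came out as whole reads (tolerance 0.01) when divided by the value of 1 read. These reads were divided by the library's sum to give CPM. The deposited signal itself served as an alternative.

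The design assumed either form of the values. Nothing was tested between groups. Summaries were made with pandas 2.3.3 in Python 3.11.15, and edgeR 4.0.16 gave TMM factors for an alternative. The counting steps were checked on simulated data. The spread used log2(CPM + 1). Of all genes, 16378 had a symbol in the deposited table and RefSeq (ARS-UCD2.0) gave 877 more, which left 2739 without.

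The gene lists and the genes described were chosen with earlier results of these data known. The naming rule takes the 15 genes with the highest CPM, the 6 highest of each role and its members at 0, the cell type markers, and the 10 most and 5 least variable genes. It gave 317 genes, and those printed were picked from them, from the lists and from gene families after their values were seen. The lists of mesothelium, immediate early and matrix regulator genes, and the classes of the first 100 genes, were added after the ranking was seen. A ranking per length was planned and not made, because no transcript lengths were used here. Reads are not independent molecules, so limits from a count of 0 cover counting error only. Some genes of the lists are not reported here.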

Additional observations from a re-analysis of the deposited data

Results flagged for a closer look

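A sample far from the others was looked for in 225 gene and group values over the 5 libraries, by the gap of the highest or lowest library to its nearest neighbour relative to the whole range. It was found for 3 of them (1.33%), while chance gives about 1 in 20. The rule looks for a single extreme library, so it passes over a shift that BEEC.103 and BEEC.104 share. A low rate therefore does not show that the libraries were alike. PTGS2, the inducible cyclooxygenase, had 52.1 CPM in library BEEC.24 and 87.1 to 92.5 CPM in the other 4. COL1A2, a fibrillar collagen chain, had 7741 CPM in library BEEC.83 and 7237 to 7346 CPM in the others. PSMB8, an immunoproteasome subunit, had 21.5 CPM in library BEEC.84 and 18.8 to 19.4 CPM in the others.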

How the results depend on the processing

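No paired analysis was possible because the result comes from no test and a single group was used. With the total taken without the mitochondrial genes, the first 10 genes held 11.3% of reads, and the shares were 5.46% for ribosomal protein genes, 7.59% for the matrix list, 5.94% for the secreted list, 6.88% for the stromal list, 0.747% for the epithelial list and 0.904% for the genes grouped as mesothelium markers. The shares of these gene groups rose because the total was smaller. The share of the first 10 genes fell from 14.8%, because the mitochondrial genes were also left out of the ranking. The number of genes with an SD of at least 0.5 was 17, and it was 27 on the deposited signal, 36 with a minimum of 1 CPM and 36 with no minimum, the last 2 because more genes with low counts enter. Of 191 values of counts and shares in alternatives, these 10 moved by more than the spread or 1.5 times. Among 336 values of single marker genes 17 moved, all with the total taken without the mitochondrial genes. KRT8, C3 and MMP2 were among them. Of 115 values with a library left out none moved. For the read shares this was fixed in advance, because leaving out 1 of 5 libraries cannot shift a mean by more than the SD. The runs with a library left out gave 12141 to 12173 detected genes and 14.7 to 15.0% of reads on the first 10 genes. They gave 16 to 23 genes with an SD of at least 0.5. A minimum of 0.5 or 2 CPM gave 12662 or 11552 detected genes, and TMM scaling gave 12155. Leaving out libraries BEEC.103 and BEEC.104 together was added after seeing the data. The ranking per length was not run. At this depth a gene with 0 reads in all 5 libraries may have up to 0.0349 CPM.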

Other observations

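All 31 listed cell cycle genes were detected. The 19 proliferation genes had a median of 13.2 CPM, 11 of them at 10 CPM or more, and the 12 genes of cell cycle brakes and senescence had a median of 45.7 CPM, 9 of them at 10 or more. CDKN1A, the p21 brake on the cell cycle, had 432, 451, 431, 483 and 489 CPM in libraries BEEC.24, BEEC.83, BEEC.84, BEEC.103 and BEEC.104. CCND1, the cyclin of early G1 phase, had 158 ± 4.24 CPM, and TOP2A, a topoisomerase of dividing cells, had 28.1 ± 3.25. Actin and its partners were read at high shares, with 23 of 24 gene rows of the cytoskeleton list at 100 CPM or more and ACTB at 2726 ± 238 CPM.

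Gene families differed in how many members were read. Of 85 ribosomal protein genes 81 were detected, of 13 cathepsins 12 and of 41 collagens 27. Of 54 keratin rows 8 were detected and 37 were at 0, with KRT8, KRT19 and KRT18 ahead of KRT7 and KRT80 at 43.6 and 39.3 CPM. Of 22 claudins 5 were detected, led by CLDN1 at 949 and CLDN15 at 196 CPM. Of 14 Eph receptors 9 were detected, with EPHA2 at 252 CPM. Of 17 S100 proteins 10 were detected, with S100A16 at 299 and S100A11 at 265 CPM, while S100A8, S100A9 and S100A12 were at 0. Of 19 Wnt ligands 8 were detected, led by WNT5A at 111, WNT2B at 88.5 and WNT2 at 54.6 CPM. Of 36 serpins 12 were detected, led by SERPINH1, the collagen chaperone, at 521 CPM.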
